A study of Sciaenops ocellatus with 24 samples.

Results

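ssa-miR-22b-5p, ipu-miR-107b and sha-miR-135a are 3 microRNA (miRNA) names of the 260 that the deposited count tables list for red drum larvae (Sciaenops ocellatus) exposed to oil of the Deepwater Horizon spill. They were chosen by their counts in exposed against control larvae, in an earlier reading of the same tables. Their differences from the controls are therefore given as a description. Where calls of a fit are counted for them, they record how the methods differ and support nothing. All 3 names were listed in each of the 6 tables, of 206 names in the slick oil tables and 200 in the source oil tables, and each had at least 10 counts in every library of its table, so 3 of 3 passed the filter on low counts.

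Each library held small RNA from a pool of whole larvae sampled at 48 hours post fertilization. Slick oil, which had weathered at sea before collection, was given at 1.25%, 2.50% and 5.00%, and the larvae of that experiment were set against their own slick control. Source oil, a pipeline oil that served as a surrogate for unweathered spill oil, was given at 0.135%, 0.27% and 0.54%, and was set against a separate source control. Both oils were blended into seawater at high energy, and the percentages are the volume of this blend in clean seawater, with 0% in both controls. All embryos, controls included, came from brood stock tanks and had been treated with formalin before exposure. The 8 groups had 3 libraries each. The labels do not say that the libraries of a group came from separate spawns or tanks, so any SD, standard error (SE) or p-value measures only the spread between these pools.

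A miRNA is a short RNA cut from a hairpin precursor that guides the silencing complex to messenger RNAs and lowers their output. Its targets are set mostly by a few bases near its 5′ end, the seed. miR-22 is conserved among vertebrates, is abundant in heart and skeletal muscle, and is required in mouse for heart growth under load. miR-107 and its near twin miR-103 lie in introns of pantothenate kinase genes in mammals, lower insulin sensitivity in mouse, and in zebrafish act on dicer during the making of hindbrain neurons. miR-135a and miR-135b lower APC, a brake on Wnt signalling, in human cells. The prefixes name the species whose miRNA entry was matched, Atlantic salmon for ssa, channel catfish for ipu and Tasmanian devil for sha. A name therefore gives the closest known entry for a set of red drum reads, and the arm (5p or 3p) in it was not checked against reads. The roles given above for miR-22 are not specific to the 5p arm named here.

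The total count per library ran from 2820454 to 9741582, and the 3 libraries at 5.00% slick oil were among the shallowest of the slick series, with 2820454, 4346165 and 3450581. Over the names listed for all slick concentrations, library 3 at 1.25% had 4256444 counts, fewer than library 2 at 5.00%. Libraries 2 and 3 at 2.50% slick oil stood apart from the rest of their oil. Their median Pearson correlation with the other 11 slick libraries, over log2-transformed CPM (counts scaled to a common library total), was 0.956 and 0.963, against 0.971 for slick control 2 and 0.985 to 0.992 for the other slick libraries. In the source series this correlation was 0.992 to 0.996. Control 1 of each oil had 0 names without counts among those in all tables of its oil, whereas the other libraries had 37 to 58. Names of neurons and brain (miR-9, miR-124, miR-128) and of skeletal muscle (miR-1, miR-133, miR-206) took the most reads of the marker lists, as in a whole larva, with summed levels of 307691 to 433265 CPM and 149368 to 214031 CPM over the 6 controls. The liver marker miR-122 had no name counted in every library.

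Levels are given as CPM, scaled by TMM over the 12 libraries of an oil. All 3 tables of an oil listed 192 names (slick) or 193 names (source). Library totals were taken over the 185 and 190 of these whose control counts were equal in all 3 tables. ipu-miR-107b in slick oil and sha-miR-135a in source oil were thus scaled by totals that leave them out. TMM, the trimmed mean of M-values, sets the scale on the assumption that most names do not change. The oils were scaled separately, and a CPM is a share of the miRNA reads, so fewer cells that make a miRNA and less of it per cell cannot be told apart in these pools. Averaged over 12 libraries, ipu-miR-107b was the most abundant, at 2444 CPM in the slick series and 2465 CPM in the source series, which placed it at rank 36 and rank 30 among the names counted in every library of an oil (115 of them in the source series). sha-miR-135a averaged 299 and 195.5 CPM (ranks 70 and 77), and ssa-miR-22b-5p 216 and 165 CPM (rank 78 in both). These ranks set read shares side by side, and capture in library making can differ between miRNAs.

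**Figure D1:**
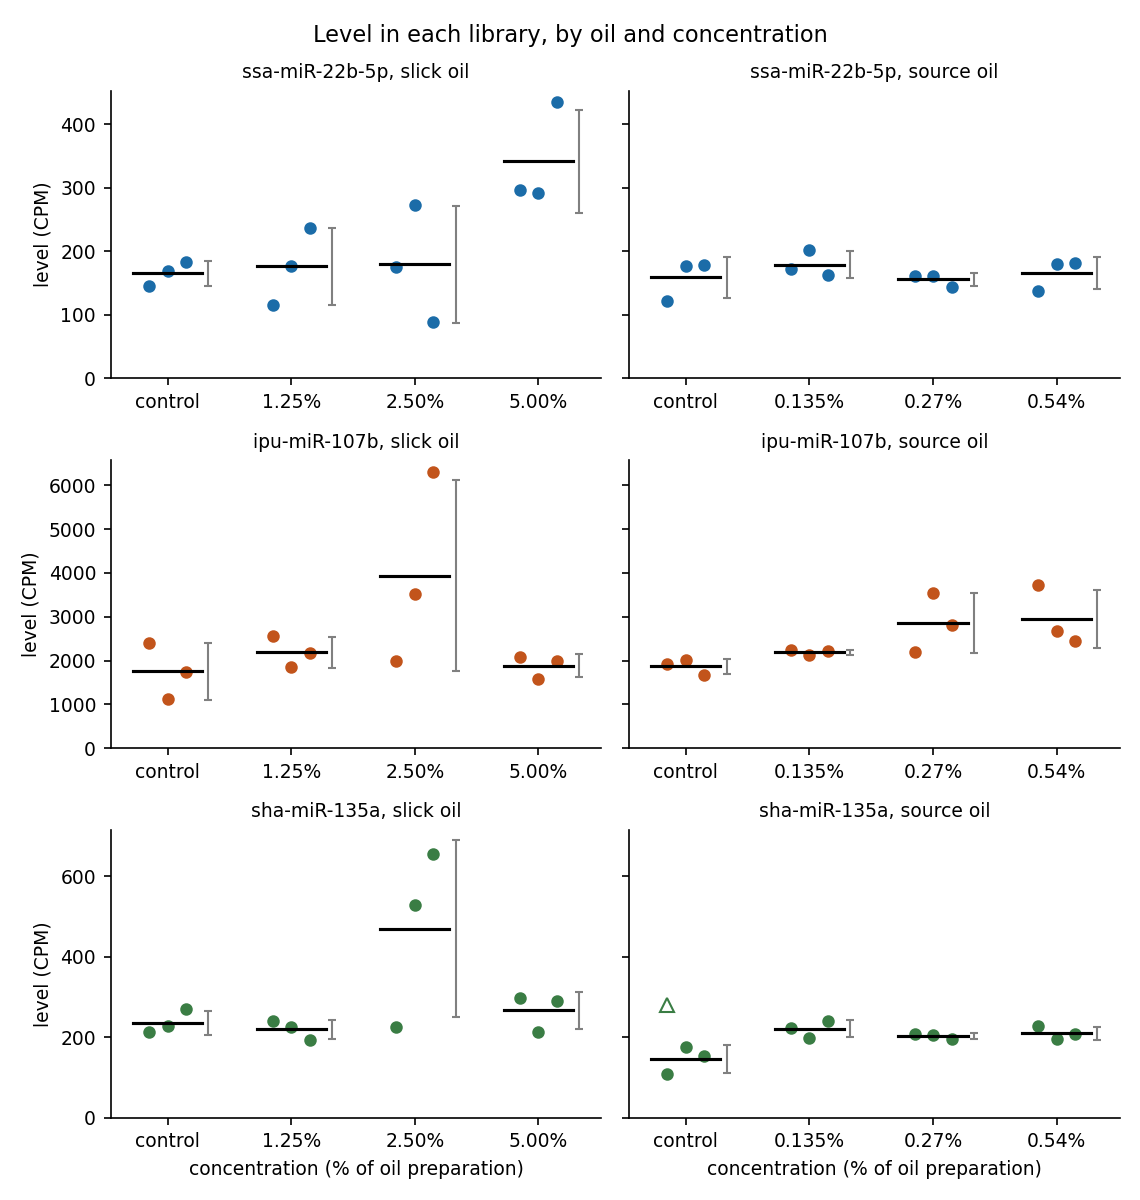
Level (CPM, linear axes from 0) of each of the 3 names in every library by concentration, slick oil on the left and source oil on the right. Points are libraries, black lines group means and grey bars ± 1 SD (n = 3); the open triangle is sha-miR-135a in source control 1 with the other count deposited for it. ssa-miR-22b-5p stands clear of the controls at 5.00% slick oil, ipu-miR-107b at every source concentration, and the sha-miR-135a difference in source oil rests on which count of control 1 is used.

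ssa-miR-22b-5p was high in 1 of the 8 groups, the larvae at 5.00% slick oil. The libraries at 5.00% had 296, 293 and 436 CPM, against 145, 169 and 183 CPM in the slick controls. All 3 exposed libraries lay above all 3 controls. The means were 342 ± 81.8 CPM and 166 ± 19.3 CPM (SD), a ratio of 2.06. The log2 fold change fitted within that table was 0.99 ± 0.20 (SE), and leaving out any 1 library kept it between 0.79 and 1.06. In that comparison 10.7% of all names tested had every exposed library above every control.

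The raw counts behind this value were not higher in exposed larvae. ssa-miR-22b-5p had 723, 1147 and 1019 reads at 5.00% slick oil, against 839, 1358 and 1515 reads in the slick controls. The difference in CPM rests on the smaller totals of the exposed libraries. With library totals alone as the scale, the log2 fold change was 0.84, while the median of all names was -0.16.

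At the lower slick concentrations ssa-miR-22b-5p overlapped its controls. The libraries at 1.25% had 116, 177 and 237 CPM, and those at 2.50% had 176, 274 and 89.3 CPM. Both groups reached below and above the control range of 145 to 183 CPM. The log2 fold changes were 0.13 ± 0.29 at 1.25% and 0.20 ± 0.47 at 2.50%, each smaller than its SE. At 1.25% the value was -0.14 without exposed library 3. Leaving out library 2 at 2.50% gave -0.31, and leaving out library 3 gave 0.42. In slick oil the difference from the control was thus seen at the highest concentration, with no graded series below it.

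In source oil the levels of ssa-miR-22b-5p ran from 122 to 203 CPM over all libraries. The source controls had 122, 177 and 179 CPM, and the libraries at 0.135%, 0.27% and 0.54% ran from 163 to 203, from 145 to 162 and from 137 to 181 CPM. Every exposed group overlapped the controls. The log2 fold changes were 0.16 ± 0.19, -0.05 ± 0.16 and -0.03 ± 0.21 in order of concentration.

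Among the 8 group means the lowest was 156 ± 9.81 CPM at 0.27% source oil. The order went on with the source control (159 ± 32.4), the slick control (166 ± 19.3), 0.54% source oil (166 ± 25.1), 1.25% slick oil (177 ± 60.5), 0.135% source oil (179 ± 21.0) and 2.50% slick oil (180 ± 92.3 CPM). Neighbours in this order overlapped, up to the step from 2.50% to 5.00% slick oil, where they did not. Since the oils were scaled separately, the order across oils is approximate.

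ipu-miR-107b was higher than its controls in all source oil groups, with the group means in the order of concentration. The source controls had 1932, 2003 and 1668 CPM. The libraries at 0.135% had 2240, 2120 and 2210 CPM, those at 0.27% had 2191, 3552 and 2819 CPM, and those at 0.54% had 3715, 2679 and 2455 CPM. Each of the 9 exposed libraries lay above each of the 3 controls, although the range at 0.27% overlapped those at 0.135% and 0.54%.

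The group means were 1868 ± 177 CPM in the source controls and 2190 ± 62.2, 2854 ± 681 and 2950 ± 672 CPM at 0.135%, 0.27% and 0.54% source oil. The ratios to the control were 1.17, 1.53 and 1.58. The fitted log2 fold changes were 0.21 ± 0.09, 0.59 ± 0.21 and 0.57 ± 0.19, with no rise from 0.27% to 0.54%. The value at 0.135% was 0.11 without source control 3, the lowest control, and between 0.19 and 0.25 with any other library left out. At 0.27% it ran from 0.40 without exposed library 2 to 0.77 without exposed library 1. The value at 0.54% was 0.38 without exposed library 1, the highest of its group, and at most 0.73 with any other library left out. The share of all names with every exposed library above every control was 14.1%, 17.7% and 22.9% at the 3 source concentrations. The 3 comparisons share the same source control libraries.

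In slick oil ipu-miR-107b was high in 2 libraries at 2.50% and otherwise overlapped the controls. The slick controls had 2411, 1115 and 1734 CPM, a wider range than in the source controls. The libraries at 1.25% had 2563, 1857 and 2165 CPM, those at 2.50% had 2000, 3511 and 6315 CPM, and those at 5.00% had 2088, 1583 and 1982 CPM. The libraries with 3511 and 6315 CPM are libraries 2 and 3, which stood apart from the other slick libraries over all names. Library 1 at 2.50% lay within the control range.

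The log2 fold changes in slick oil were 0.38 ± 0.30, 1.28 ± 0.52 and 0.08 ± 0.27 in order of concentration. Without library 3 at 2.50% the middle value was 0.65. The value at 1.25% was 0.15 without slick control 2 and 0.60 without slick control 1, and at 5.00% it was -0.12 and 0.32 without those controls. The lowest mean over the 8 groups was that of the slick control (1753 ± 648 CPM), followed by the source control, 5.00% slick oil (1884 ± 266) and 0.135% source oil, and then by 1.25% slick oil (2195 ± 354), 0.27% and 0.54% source oil and 2.50% slick oil (3942 ± 2189 CPM). The libraries of neighbours in this order overlapped except between 5.00% slick oil and 0.135% source oil. The largest mean and the largest SD of ipu-miR-107b belonged to the same group.

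sha-miR-135a depends, in source oil, on a count that was deposited with 2 values. Source control 1 had 752 reads in the tables of 0.135% and 0.27% and 1929 reads in the table of 0.54%. The other 2 source controls had 1209 and 956 reads in all tables. These tables differed in control 1 at 3 names for source oil and 7 for slick oil, and the other member among them was ipu-miR-107b, with 13972 reads in 2 tables and 13921 in the table of 2.50%. For ipu-miR-107b the count in the 2.50% table gave a slick control mean of 1750 CPM, against 1753 CPM with the other. For sha-miR-135a the choice of count set both the size and the direction of a difference.

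With the count of 752, the source controls had 109, 176 and 155 CPM of sha-miR-135a. The libraries at 0.135% had 224, 199 and 242 CPM, those at 0.27% had 210, 205 and 196 CPM, and those at 0.54% had 228, 194.9 and 208 CPM. All 9 exposed libraries then lay above the controls, at much the same level in all 3 groups. Every exposed library lay above every control for 14.1%, 17.7% and 22.9% of all names tested at 0.135%, 0.27% and 0.54%. The ratios of means were 1.51, 1.39 and 1.44, with no increase with concentration.

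With the count of 1929, control 1 had 280 CPM, above all exposed libraries of the source series. The control mean was then 204 ± 67.3 CPM in place of 147 ± 33.9 CPM, and the exposed means were 222 ± 21.5, 203 ± 7.17 and 210 ± 16.5 CPM. The ratios were 1.09, 1.00 and 1.03. All 3 exposed groups then overlapped the controls.

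Fitted within each table as deposited, the log2 fold changes of sha-miR-135a were 0.58 ± 0.20 at 0.135%, 0.46 ± 0.18 at 0.27% and -0.04 ± 0.26 at 0.54% source oil. The last table is the one that holds the count of 1929. With the other count of control 1 in each table they were 0.10 ± 0.26, -0.03 ± 0.28 and 0.43 ± 0.20. Leaving out control 1 altogether gave 0.39, 0.31 and 0.27. The files do not show which count is right.

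In slick oil sha-miR-135a followed ipu-miR-107b at 2.50%. The slick controls had 213, 228 and 270 CPM, the libraries at 1.25% had 241, 226 and 194 CPM, those at 2.50% had 226, 528 and 656 CPM, and those at 5.00% had 297, 214 and 290 CPM. Libraries 2 and 3 at 2.50% were again the high ones, and library 1 lay among the controls. The log2 fold changes were -0.07 ± 0.15, 1.07 ± 0.46 and 0.13 ± 0.18, and the middle one was 0.65 without library 3.

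Over the 8 groups sha-miR-135a was lowest in the source control, which did not overlap its next neighbour, 0.27% source oil, with the count of 752. All other neighbours in the order overlapped: 0.54% source oil, 1.25% slick oil (220 ± 23.6 CPM), 0.135% source oil, the slick control (237 ± 29.9), 5.00% slick oil (267 ± 46.2) and 2.50% slick oil (470 ± 221 CPM). With the count of 1929 the source control overlapped that neighbour.

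**Figure D2:**
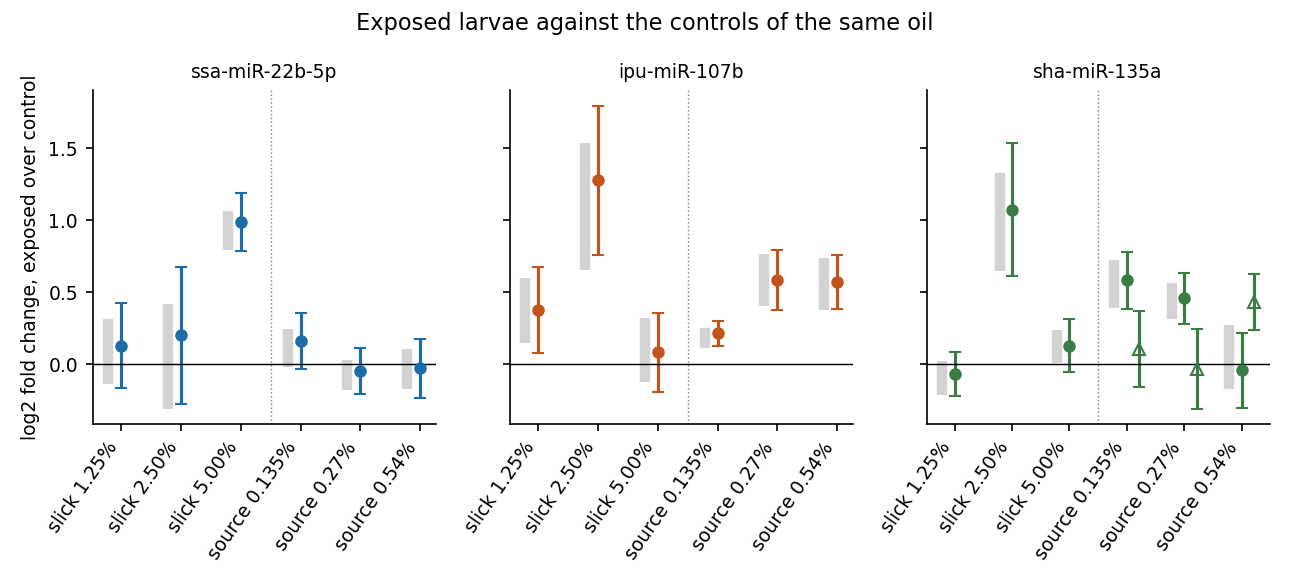
Log2 fold change of exposed larvae over the controls of the same oil, for each name and concentration (n = 3 libraries a group). Points with bars are the edgeR value ± SE, grey bars span the values with each library left out in turn, and open triangles are sha-miR-135a with the other count deposited for source control 1. The value of ssa-miR-22b-5p at 5.00% slick oil, those of ipu-miR-107b at all concentrations but 5.00% slick oil, and those of sha-miR-135a at 2.50% and 5.00% slick oil and at 0.135% and 0.27% source oil stay above 0 with any library left out, though some only just. The values of ipu-miR-107b and sha-miR-135a at 2.50% slick oil have wide bars.

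The 3 names and 6 comparisons give 18 differences from a control. In 6 of them every exposed library lay above every control in the table as deposited, and in 0 every exposed library lay below. The first 6 were ssa-miR-22b-5p at 5.00% slick oil, ipu-miR-107b at the 3 source concentrations and sha-miR-135a at 0.135% and 0.27% source oil. Of all names tested, 3.14%, 5.13% and 10.7% had every exposed library above every control at 1.25%, 2.50% and 5.00% slick oil, and 14.1%, 17.7% and 22.9% at 0.135%, 0.27% and 0.54% source oil. Every exposed library lay below every control for 5.66%, 5.77% and 10.1% in slick oil and 8.33%, 17.1% and 26.8% in source oil.

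edgeR's quasi-likelihood test over all names, with Benjamini-Hochberg adjustment, called 0 of the 18. It called 0.629%, 0% and 2.01% of all names at 1.25%, 2.50% and 5.00% slick oil and 1.28%, 1.27% and 14.4% at 0.135%, 0.27% and 0.54% source oil.

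At an unadjusted p under 0.05, edgeR gave 4 of the 18, where 2.52%, 2.56% and 13.4% of all names in slick oil and 14.1%, 24.1% and 39.2% in source oil did so, from low to high concentration. DESeq2 called the same 4 as higher: ssa-miR-22b-5p at 5.00% slick oil, sha-miR-135a at 0.135% and ipu-miR-107b at 0.27% and 0.54% source oil. It called 1.26%, 0.641% and 6.71% of all names higher in slick oil and 8.33%, 6.96% and 20.9% in source oil. Among names counted in every library, edgeR called ssa-miR-22b-5p at 5.00% slick oil, with a log2 fold change of 0.96 ± 0.19, and ipu-miR-107b at 0.54% source oil, at 0.59 ± 0.16. That fit called 0%, 0% and 2.75% of names higher in slick oil and 0%, 9.57% and 17.6% in source oil. Fitted over all 12 libraries of an oil, edgeR called 1 of the 18, sha-miR-135a at 0.54% source oil, at 0.50 ± 0.15 with the count of 752. That fit called 0%, 0% and 0% of names higher in slick oil and 0%, 1.18% and 10.6% in source oil. These calls belong to contrasts that chose the names.

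In the authors' deposited table for 5.00% slick oil, ssa-miR-22b-5p was called higher with a log2 fold change of 0.93, and 5.26% of the names in it were. The authors' deposited table for 0.135% source oil called sha-miR-135a higher, at 0.53, with 6.67% of its names. The authors' deposited table for 0.54% source oil called ipu-miR-107b higher, at 0.57, with 16.2% of its names. The authors' deposited tables for the other concentrations called 0 of the 3 names, with 1.01%, 2% and 5.26% of all names higher at 1.25% and 2.50% slick oil and 0.27% source oil. sha-miR-135a at 0.54%, where the table holds the count of 1929, was at -0.02 in the authors' deposited table and was not called.

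The members' own families were compared next, since reads of one miRNA can be counted under names of several species. No other name of miR-103 or miR-107 was listed in any table, so ipu-miR-107b stood for that group alone. No name had counts within 5% of those of a member in every library of an oil, so none of the 3 was a copy of another listed name.

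The main miR-22 name of the source tables, ssa-miR-22a-5p, had far more reads than ssa-miR-22b-5p. ssa-miR-22a-5p had 135645, 119333 and 213335 reads at 0.54% source oil, against 108584, 121980 and 98725 reads in the source controls. Its log2 fold change was 0.03 ± 0.17 at 0.54% and 0.06 ± 0.08 at 0.27%. It had 0 reads in library 3 at 0.135%, where dre-miR-22a-5p, the zebrafish entry, had 109723, and dre-miR-22a-5p had 0 reads in source controls 2 and 3. Both names were counted in source control 1, with 112470 reads of dre-miR-22a-5p beside 108584 of ssa-miR-22a-5p, and in libraries 1 and 2 at 0.135%.

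The count of ssa-miR-22b-5p was 0.94 ± 0.17% of that of ssa-miR-22a-5p at 0.54% source oil, 0.90 ± 0.08% at 0.27% and 0.96 ± 0.18% in the source controls (SD, n = 3). The ratio within a library needs no scale across libraries, and it overlapped the controls in both groups. In the slick tables the larger miR-22 name was pol-miR-22-5p. It was listed at 1.25% and 2.50%, with 94177 reads in slick control 1 and 0 reads in slick controls 2 and 3, and it was not listed in the table of 5.00%. The level of ssa-miR-22b-5p at 5.00% slick oil could not be set against it.

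The other miR-135 names were ola-miR-135a and ola-miR-135b, both matched to medaka. Over the 6 comparisons they give 12 results, of which edgeR over all names called 0, with 1 at an unadjusted p under 0.05 (ola-miR-135a at 0.54% source oil). At that concentration 39.2% of all names had an unadjusted p under 0.05 in edgeR. DESeq2 called the same result of ola-miR-135a, where it called 20.9% of all names higher. ola-miR-135a lay above all controls at 0.27% (log2 fold change 0.18 ± 0.07) and 0.54% source oil (0.16 ± 0.06), as did 17.7% and 22.9% of all names. At these concentrations ola-miR-135b was at 0.31 ± 0.14 and 0.20 ± 0.10. At 0.135% the values of ola-miR-135a and ola-miR-135b were 0.01 ± 0.06 and 0.06 ± 0.10, where sha-miR-135a was at 0.58 ± 0.20 with the count of 752. At 5.00% slick oil they were -0.23 ± 0.16 and -0.31 ± 0.16, where sha-miR-135a was at 0.13 ± 0.18.

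At 2.50% slick oil, ola-miR-135a was at -0.01 ± 0.22 and ola-miR-135b at 0.67 ± 0.49. The names of this family thus had unlike values in that group. The count of sha-miR-135a was 19.2% of that of ola-miR-135a in library 1 and 66.0% and 56.7% in libraries 2 and 3, against 20.7% to 22.8% in the slick controls. The group means were 47.3 ± 24.8% and 21.5 ± 1.17% (SD, n = 3 each). Against ola-miR-135b the ratio was 12.2%, 12.7% and 43.6% in libraries 1, 2 and 3, against 12.3% to 16.5% in the slick controls, so library 2 was not high on that measure. Of the sum of the 3 names, sha-miR-135a made up 6.95%, 9.61% and 19.8%, against 7.16% to 8.73%. Library 3 was thus high on all 3 measures, and library 2 was far above the controls only against ola-miR-135a. Libraries 2 and 3 are those that stood apart over all names, and the part of that in this ratio was not tested.

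In source oil the same ratio was 19.96 ± 1.11%, 16.3 ± 0.87% and 16.3 ± 0.74% at 0.135%, 0.27% and 0.54%, against 13.5 ± 3.40% in the source controls with the count of 752. With the count of 1929 the controls were at 18.6 ± 5.42%. Source control 1 was the lowest library of the series with the first count, at 9.67%, and the highest with the second, at 24.8%. At 0.135% every library was above every control with the count of 752, whereas at 0.27% and 0.54% the groups overlapped with either count. Against ola-miR-135b the ratio was 15.6 ± 0.72%, 12.04 ± 1.28% and 12.8 ± 0.89%, against 11.1 ± 3.33% in the source controls with the count of 752 and 14.9 ± 3.28% with the count of 1929.

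**Figure D3:**
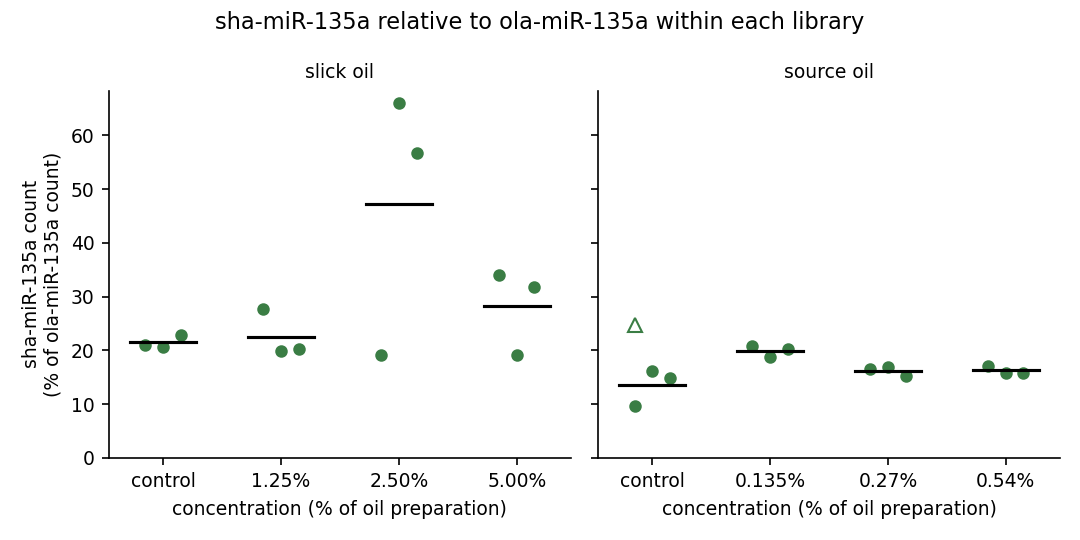
Count of sha-miR-135a as a percentage of the count of ola-miR-135a in the same library, by concentration (linear axis from 0; points are libraries, black lines group means, n = 3). The open triangle is source control 1 with the other deposited count. Libraries 2 and 3 at 2.50% slick oil lie at 66.0% and 56.7%, above all others (against ola-miR-135b, not plotted, they were at 12.7% and 43.6%), and the 2 counts of source control 1 put it at the bottom or at the top of the source series.

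The 3 miR-135 names summed to 2752 ± 194.9, 3158 ± 142 and 3144 ± 123 CPM at 0.135%, 0.27% and 0.54% source oil. The source controls were at 2580 ± 165 CPM with the count of 752. The sum at 0.27% and 0.54% lay above every control, as did 17.7% and 22.9% of all single names tested. sha-miR-135a made up only 6.45 ± 0.39% and 6.69 ± 0.37% of the sum. Its share in the source controls was 5.73 ± 1.52% with the count of 752 and 7.61 ± 1.76% with the count of 1929. In slick oil the sums were 2722 ± 229, 4022 ± 1279 and 2629 ± 226 CPM at 1.25%, 2.50% and 5.00%, against 3016 ± 212 CPM in the slick controls.

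miR-15 and miR-16 share part of their seed with miR-103 and miR-107 in vertebrates, and the names of that group were taken from a list by number. Each table listed 5 of them, and 2 to 4 passed the filter, for 18 results over the 6 comparisons. edgeR and DESeq2 each called 0 of the 18, and 0 had an unadjusted p under 0.05 in edgeR. Several of these names had 0 reads in a library and many reads in another of the same group. aca-miR-16a-5p was counted in every library at 0.54% source oil and its controls, with 2087, 1775 and 2258 reads against 1589, 1728 and 1316 reads, and its log2 fold change there was -0.06 ± 0.08. At the same concentration ipu-miR-107b was at 0.57 ± 0.19. The median log2 fold change of the 3 miR-15/16 names tested was -0.06 at 0.54% source oil and -0.71 at 5.00% slick oil. Over all names tested it was -0.03 and -0.02. At 5.00% slick oil each of the 3 had 0 reads in a library or more. The median name there, aca-miR-16a-5p, had an SE of 1.97, larger than its value, so no fall of the group can be read from it.

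The names with the most similar levels were found by the Pearson correlation of log2(CPM + 1) over the 12 libraries of an oil, among the 106 (slick) or 114 (source) other names counted in every library. These libraries share their depth, scale and treatment groups, and the correlations are descriptions. For ssa-miR-22b-5p in slick oil they were fru-miR-24-5p (r = 0.92, Spearman rho = 0.85), mdo-miR-128a-5p (0.89, 0.82), a name of a miRNA known from neurons, and oar-miR-30d (0.88, 0.91). fru-miR-24-5p had 676, 692 and 727 CPM at 5.00% slick oil, against 514, 585 and 593 CPM in the slick controls. oar-miR-30d had 540, 505 and 580 CPM there, against 336, 400 and 440 CPM. In both, as in ssa-miR-22b-5p, the libraries at 5.00% lay above all controls, as did those of 10.7% of all names tested. Those of mdo-miR-128a-5p overlapped the controls. The matches were picked for their likeness over these same libraries, so a shared separation at 5.00% is no separate support.

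In source oil, where every exposed group of ssa-miR-22b-5p overlapped the controls, the best matches of ssa-miR-22b-5p were weaker. They were hhi-miR-196 at 0.65, ipu-miR-130c at 0.61 and hsa-miR-130b-5p at 0.59.

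For ipu-miR-107b in source oil the closest names were ola-miR-214 (r = 0.93, rho = 0.91), aca-miR-34b-5p (0.90, 0.90) and ola-miR-106a (0.84, 0.83). miR-214 is known from connective tissue and the skeleton, miR-34b as a target of p53 in mammals, and miR-106a belongs to the miR-17 family found in dividing cells. aca-miR-34b-5p had 71.6, 61.2 and 43.0 CPM at 0.54% source oil, against 32.1, 26.9 and 24.6 CPM in the source controls. In slick oil the closest names were dre-miR-93 (0.93, 0.74), ola-miR-106a (0.91, 0.86) and oan-miR-20a-5p (0.89, 0.79), all of the miR-17 family. ola-miR-106a was thus among the 3 closest names in both oils. In slick oil dre-miR-93 had 1954 CPM in library 3 at 2.50%, the library in which ipu-miR-107b had 6315 CPM.

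**Figure D4:**
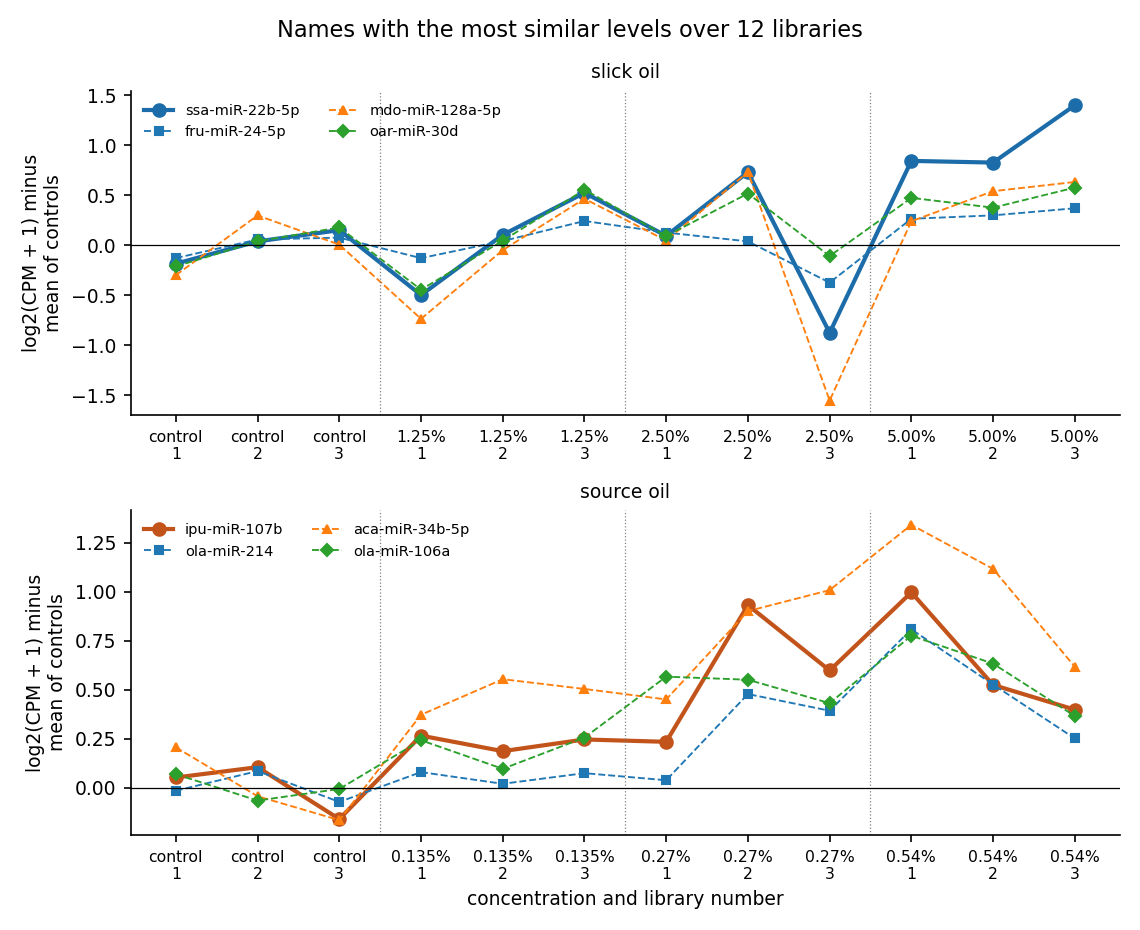
Levels, as log2(CPM + 1) minus the mean of the controls of that oil, of ssa-miR-22b-5p (slick oil, upper panel) and ipu-miR-107b (source oil, lower panel) in each of 12 libraries, with the 3 names closest to each by Pearson correlation. Lines only link the points of a name; replicates have no order. ssa-miR-22b-5p dips with fru-miR-24-5p and mdo-miR-128a-5p in library 3 at 2.50% and is highest at 5.00%. ipu-miR-107b and its matches are above every control in the 3 libraries at 0.54%, as were 22.9% of all names tested. The matches were picked for their likeness over these same libraries.

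For sha-miR-135a in slick oil the closest names were dre-miR-93 (0.86, 0.68), oan-miR-20a-5p (0.83, 0.64) and ssa-miR-137-5p (0.81, 0.55), the last from a miRNA known from neurons. In source oil they were ssa-miR-23b-5p (r = 0.72, rho = 0.29), ccr-miR-722 and ssa-miR-722-5p (0.67, 0.55 for both). ccr-miR-722 and ssa-miR-722-5p had equal levels in each of the 12 libraries, so they give the same values under separate names. These source oil correlations rest on the count of 752 in source control 1, the lowest of the 12 libraries.

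Among the members, ipu-miR-107b and sha-miR-135a had the highest correlation, r = 0.80 (rho = 0.36) in slick oil. Without library 3 at 2.50% it was 0.57 (rho = 0.16). In source oil it was 0.50 (rho = 0.53). ssa-miR-22b-5p and ipu-miR-107b were at -0.42 in slick oil, at 0.03 without library 3 at 2.50%, and at -0.27 in source oil. The 3 names therefore did not share 1 pattern over the libraries, and the groups in which each was highest differed: 5.00% slick oil for ssa-miR-22b-5p and 2.50% slick oil for the other 2.

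The controls of both experiments were also set side by side. Control counts had a part in the choice of the names, so these differences are a description too. ssa-miR-22b-5p averaged 167 ± 23.1 CPM in slick controls and 183 ± 40.9 CPM in source controls (SD, n = 3 each, scaled over the 6 controls). Its log2 fold change, slick over source, was -0.20 ± 0.20 in the planned fit, which leaves out names with unequal control counts. The means above were scaled with those names kept, and that fit gave -0.14 ± 0.22. The planned value lay between -0.35 without source control 1 and -0.07 without source control 2.

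ipu-miR-107b averaged 1739 ± 568 CPM in slick controls and 2142 ± 153 CPM in source controls, a log2 fold change of -0.30 ± 0.26. This value was -0.56 ± 0.21 without slick control 1 and -0.09 ± 0.19 without slick control 2, the highest and the lowest slick control.

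sha-miR-135a averaged 238 ± 29.4 CPM in slick controls and 169 ± 40.8 CPM in source controls with the count of 752. The libraries ran from 205 to 263 CPM in slick controls and from 123 to 200 CPM in source controls. How many of all names were apart like this was not counted. The log2 fold change was 0.49 ± 0.22, and 0.32 ± 0.19 without source control 1. With the count of 1929 it was 0.03 ± 0.25. edgeR over all names called 0 of the 3 names in this contrast, with 21% of 119 names called where names with unequal counts were left out and 25.6% of 129 where they were kept. With the count of 752, DESeq2 and edgeR over names counted in every library each called sha-miR-135a higher, with 18.6% and 22.1% of their names. The experiments differ in more than the oil, and a difference of experiment or batch cannot be told apart from one of the larvae.

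Markers of several cell types differed from the controls in groups where members did, though the match was not complete. They also did so at 2.50% slick oil and at every source concentration, where ssa-miR-22b-5p overlapped its controls. Of all names tested, 3.14%, 5.13% and 10.7% had every exposed library above every control at 1.25%, 2.50% and 5.00% slick oil. Every exposed library lay below every control for 5.66%, 5.77% and 10.1%. These shares are for single names, and most markers are sums of names. At 1.25% slick oil, where every member overlapped its controls, the heart name lay below them, at 3793 to 3971 against 4380 to 5835 CPM. At 5.00% slick oil, where ssa-miR-22b-5p was high, the neuron and brain names summed to 458977 to 548955 CPM, against 381975 to 433265 CPM in the slick controls (4 of 6 names counted in every library). The red blood cell names miR-144 and miR-451 summed to 116 to 168 CPM there, against 354 to 389 CPM, over 2 of 2 names. The skin names were higher, at 19106 to 26482 against 14902 to 18385 CPM (3 of 4 names), and the gut names lower, at 265 to 296 against 316 to 350 CPM (2 of 3 names). The heart name, from miR-499, overlapped the controls, at 3787 to 4591 against 4380 to 5835 CPM. The muscle, eye and islet names overlapped them too. The part of these shifts in the level of ssa-miR-22b-5p was not tested. At 2.50% slick oil, where ipu-miR-107b and sha-miR-135a were high in libraries 2 and 3, red blood cell names summed to 135 to 267 CPM, below the controls, and skin names to 20323 to 33987 CPM, above them. The muscle names there ran from 64806 to 345617 CPM, on both sides of the slick controls at 149368 to 201831 CPM, and the part of this in the 2 miRNAs was not tested either.

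At 0.54% source oil, where ipu-miR-107b was high, the skeletal muscle names summed to 130988 to 158716 CPM, against 189609 to 214031 CPM in the source controls (2 of 4 names). The eye and sensory organ names summed to 31976 to 34507 against 45637 to 47299 CPM (4 of 6 names), and the neuron and brain names to 236604 to 298577 against 307691 to 313326 CPM (5 of 7 names). Red blood cell names were between 106.96 and 107.49 CPM in the exposed libraries, against 182 to 232 CPM (2 of 2 names). Skin names were higher, at 17862 to 19379 against 14461 to 16387 CPM (3 of 4 names). The islet name, from miR-375, was lower, at 5201 to 6397 against 7604 to 8730 CPM, and the heart and gut names overlapped the controls. At 0.27% the muscle, eye, islet, red blood cell and skin names were on the same side of the controls. At 0.135% the muscle, eye and skin names were, while the neuron and brain names were higher, at 313946 to 366114 CPM. Of all names tested, 14.1%, 17.7% and 22.9% had every exposed library above every control at 0.135%, 0.27% and 0.54% source oil. Every exposed library lay below every control for 8.33%, 17.1% and 26.8%. The part of the marker shifts in the levels of ipu-miR-107b and sha-miR-135a was not tested.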

How the data were processed

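Small RNA of 24 libraries of pooled whole larvae was sequenced (Illumina), per the labels. These give whole embryo as the source name and whole larva as the tissue. The authors deposited 6 tables of read counts per miRNA name, each with the 3 libraries of 1 concentration and the 3 controls of its oil. How reads were aligned and named, and with which database, is not given in the sources used here. For every comparison the authors deposited a DESeq2 table too (no version, per the submitters' processing notes). Per the file headers, these hold a mean signal for control and exposed libraries, a score that is the change of the mean, the authors' log2 fold change, and the authors' p-value and FDR.

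All columns were matched to samples by title, with 0 left over. Counts were fitted with edgeR 4.0.16 in R 4.3.3 (TMM, quasi-likelihood F test, Benjamini-Hochberg adjusted p under 0.05), table by table, on names reaching 10 counts in 3 or more libraries. SE is the size of the log2 fold change over the root of F. The fit was checked on simulated counts, made only for names with 10 or more counts in every library. Their simulated spread was smaller than that found over all names, and also smaller than that over names counted in every library. The check therefore does not cover these wider spreads. For the 12 libraries of an oil, CPM was scaled to library totals without the names on which its tables disagree in control 1. For those names the count in 2 of 3 tables was used for CPM, likeness and the contrast of the controls. That contrast was planned without such names, so ipu-miR-107b and sha-miR-135a come from an added fit that keeps them. Alternatives were DESeq2 1.42.0, library totals alone, no filter, names counted in every library, all 12 libraries of an oil, a replicate block, each library left out, and the other count of control 1. The named miRNAs are the members, their families, the miR-15/16 names that passed the filter, the 3 names closest to each member by correlation, and any copy within 5%.

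The members and lists were chosen with earlier results of these data known. At 2.50% slick oil, same-numbered exposed and control libraries deviated together (correlations 0.45, 0.63 and 0.38), each over the threshold of 0.1 set for a pairing. The same slick controls serve the other slick comparisons, where not every pair passed, so a pairing by number remains uncertain. With a replicate block the log2 fold changes at 2.50% were 0.06 ± 0.48 for ssa-miR-22b-5p, 1.18 ± 0.61 for ipu-miR-107b and 0.94 ± 0.37 for sha-miR-135a. The fits with and without the block both called 0 names there. Totals of 2820454 to 9741582 counts limit precision through counting error, and low names are the least certain.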

Additional observations from a re-analysis of the deposited data

How the results depend on the processing

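Of 138 log2 fold changes of the members under other settings 13 had the opposite sign to the reported value, in 6 of 21 results, and of 126 with a library left out 16 did, in 8 of 21. Where leaving out a library turned the sign, the reported size was at most 0.20. With the other count of source control 1, sha-miR-135a was at 0.10 (0.090 among names counted in every library) at 0.135%, -0.033 (-0.041) at 0.27% and 0.43 (0.44) at 0.54% source oil, and at 0.50 at 0.54% over all 12 source libraries, a fit that uses the count of 752. Library totals alone shift the median of all names to 0.11, 0.23 and 0.28 at the source concentrations and to -0.16 at 5.00% slick oil; ssa-miR-22b-5p was then at 0.18 and 0.26 and ipu-miR-107b at 0.90 (0.27%, 0.54% and 0.54%), and higher against lower calls at 0.54% became 25 and 5 in place of 4 and 18. sha-miR-135a at 0.54% was also at 0.28 with library totals and 0.27 without source control 1, where it was at -0.04 as deposited, and it was called over all 12 libraries. At 5.00% slick oil library totals put ipu-miR-107b at -0.022 and sha-miR-135a at -0.012. Between controls, sha-miR-135a was called by DESeq2 (0.48) and among names counted in every library (0.50).

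Counts of all names called moved far more, and the cause was not tested. They were 1, 0 and 3 in slick oil, 2, 2 and 22 in source oil (low to high) and 25 between controls. DESeq2 gave 3, 1, 21, 23, 31, 64 and 45. Names counted in every library gave 0 and 6 (1.25%, 5.00%), 0, 27 and 47, and 46 between controls. All 12 libraries gave 0 and 0 (1.25%, 5.00%), 1, 12 and 38. No filter gave 1 (5.00%), 1 (0.27%) and 5 (0.54%), and library totals 10 (0.27%) and 8 (controls). With a replicate block 0 names were called at 1.25% and 5.00% slick oil and at all source concentrations, and 11 between controls. Outside 2.50% slick oil no comparison had every same-number correlation over 0.1. With the contrast of the controls included, 10 of 21 such correlations were over 0.1 (range -0.30 to 0.63), and 11 of 21 were the best of their library. Leaving out 1 library gave 0 to 3, 0 to 2, 0 to 6, 0 to 4, 0 to 6, 0 to 28 and 6 to 36 calls. The common biological coefficient of variation between libraries of a group was 124% to 139% over all names in the exposed comparisons and 89.8% between controls, and 11.4% to 36.7% over names counted in every library in the exposed comparisons.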
